A study of Saccharomyces cerevisiae with 11 samples.

Results

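The genes described here encode the proteins of the small (40S) subunit of the cytosolic ribosome in budding yeast, Saccharomyces cerevisiae. They were chosen by name, as the features whose locus tag has a standard name made of RPS, a number and at most a final A or B, and 56 of the 7035 features used met this rule. These 56 genes encode 32 proteins: 24 proteins have an A and a B gene copy, and 8 are made from a single gene. RNA abundance was measured by sequencing of ribosomal RNA-depleted total RNA in 11 cultures, and the deposited values are TPM, a transcript's share of all transcripts in its library after division by transcript length, so that levels of different genes can be set side by side. All cultures were of 1 strain, W303 of mating type MATa. It carries the alleles ade2-1, trp1-1, his3-11,15, can1-100 and a leu2 allele, and at ura3-1 the gene of OsTIR1, the plant F-box protein that recognises auxin-bound degrons, under the ADH1 promoter (pMK200, URA3). Its only chromosomal copy of SCC2, the gene of the cohesin loader, is SCC2-AID*-6FLAG-HYG, which encodes a protein that is degraded once auxin is added. Every culture, WT included, received 1 mM of the auxin IAA for 9 hours, so the groups differ in the SCC2 allele on a plasmid with HIS3 (pRS413). There were 3 cultures with scc2-R787G, 3 with scc2-G1242V, 2 with the empty vector (NULL) and 3 with wild-type SCC2 (WT). The libraries of the R787G, G1242V and NULL groups are together called the mutant libraries, although NULL holds no SCC2 allele on its plasmid. Each plasmid allele carries a 7MYC tag. The labels do not say how many transformants the cultures came from or how dense each culture was at harvest.

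A 40S subunit holds 1 copy of each of these proteins around the 18S ribosomal RNA. It binds the messenger RNA, holds the codon against the anticodon and passes the message from its entry channel to its exit site. In yeast the genes of ribosomal proteins are transcribed together. Rap1 binds their promoters, Fhl1 and Ifh1 are recruited there, and Sfp1 and the TORC1 and protein kinase A pathways tie their activity to nutrients and growth rate. Their transcripts are among the most abundant of fast-growing yeast cells and fall in stress. Most of the genes exist as pairs of copies left from an ancient genome duplication, and many contain an intron.

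Because most of these proteins have 2 gene copies, how far a read can be assigned to 1 copy decides what the value of a single gene means. Reads were 50 bases long. In the coding sequences of the RefSeq annotation (R64, the assembly that sacCer3 names), the copies of a pair were 84.5% to 99.2% identical. In 9 of the 24 pairs no stretch of 50 coding bases was the same in both copies, and in 20 pairs under 20% of such stretches were. The other 4 pairs, with RPS6 (72.0%), RPS4 (46.8%) and RPS24 (38.2%) among them, shared more, so the split of reads between those copies rests more on estimation. The stretches below are shown because the copies of RPS22, RPS9 and RPS30 lay furthest apart in R787G minus WT. Each is the last run of 54 coding bases that aligns without a gap, 5′ to 3′ on the coding strand, and capitals mark the bases that differ between the copies.
RPS22A (chrX:74910-74963, minus strand): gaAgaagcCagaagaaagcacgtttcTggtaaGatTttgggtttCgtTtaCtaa
RPS22B (chrXII:857264-857317, plus strand): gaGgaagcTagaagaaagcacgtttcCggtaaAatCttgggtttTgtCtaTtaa
RPS9A (chrXVI:405975-406028, plus strand): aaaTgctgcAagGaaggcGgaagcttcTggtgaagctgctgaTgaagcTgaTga
RPS9B (chrII:605445-605498, plus strand): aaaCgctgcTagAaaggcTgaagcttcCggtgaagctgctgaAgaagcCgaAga
RPS30A (chrXII:712537-712590, minus strand): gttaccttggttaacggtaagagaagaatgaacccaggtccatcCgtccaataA
RPS30B (chrXV:678191-678244, minus strand): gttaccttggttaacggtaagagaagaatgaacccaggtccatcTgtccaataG
RPS22 and RPS9 differed at 8 of these 54 bases each and RPS30 at 2.

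Sequence upstream of the genes was searched for the letters of known sites, as a description only. The annotation places the start of each gene at its start codon. A strict form of the Rap1 site, read as ACACCC, any 2 bases and then ACA, was found on either strand within 500 bases before the start of 8 of 56 genes (14.3%), against 0.933% of 6000 protein-coding genes. A core without the first A, which every match of the longer form also holds, was found at 11 of 56 (19.6%), against 2.22%. In the window from 250 bases before to 50 after the start, the strict form was found at 1 of 56 genes, against 0.483% of all. In that window GATGAG, the core of the PAC site of ribosome assembly genes, was found at 12.5% of the 56, against 20.4% of all, the core of the RRPE site of the same genes (4 A followed by 4 T) at 5.4%, against 9.03%, and TATAAA at 23.2%, against 45.2%. Matches of the strict form in the 500 bases are printed as a description, with 15 bases on each side, on the strand of the gene, and with the match in capitals. Genes without a match rose against WT as well. In RPS10A and RPS10B the match is on the other strand.
RPS7A (chrXV:505304-505344, plus strand, match from base 475 before the start): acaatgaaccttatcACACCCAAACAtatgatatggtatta
RPS16B (chrIV:308128-308168, minus strand, match from base 364 before the start): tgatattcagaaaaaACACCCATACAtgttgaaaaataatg
RPS21B (chrX:157592-157632, minus strand, match from base 344 before the start): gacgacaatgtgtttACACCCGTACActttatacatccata
RPS23B (chrXVI:794640-794680, plus strand, match from base 310 before the start): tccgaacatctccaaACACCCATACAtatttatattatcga
RPS24A (chrV:305970-306010, plus strand, match from base 338 before the start): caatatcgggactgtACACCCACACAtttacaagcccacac
RPS10A (chrXV:866743-866783, plus strand, match from base 340 before the start): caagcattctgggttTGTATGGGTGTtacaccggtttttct
RPS10B (chrXIII:732209-732249, plus strand, match from base 190 before the start): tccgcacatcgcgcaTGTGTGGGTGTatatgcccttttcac
The median log2 difference of the 8 genes with a match was 2.96 in R787G minus WT, 2.62 in G1242V minus WT and 1.80 in NULL minus WT. For the 48 genes without such letters it was 2.57, 2.25 and 1.44. The difference between both sets was not tested.

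SCC2, the gene that was manipulated, stood at 100.1, 132 and 105 scaled TPM in R787G, 77.9, 96.6 and 96.2 in G1242V, 23.9 and 22.5 in NULL, and 125, 100.4 and 108 in WT, and its log2 difference in NULL minus WT was -2.21 ± 0.14 (limma adjusted p = 2.34e-06). Of mating-type markers, 5 of a cells (STE2, BAR1, MFA1, MFA2 and STE6) summed to 448 to 836 scaled TPM over the 11 libraries, and those of alpha cells (STE3, SAG1, MF(ALPHA)1 and MF(ALPHA)2) to 28.8 to 55.8. Scaled TPM are TPM multiplied by a factor for each library, 0.88 to 1.08, that sets the median ratio over 5221 genes alike. TPM keep no sequencing depth, so no counting error can be given, and the error of each value is the spread between cultures. WT replicate 2 held 9.19% of its TPM in leftover ribosomal RNA, against 0.155% to 0.494% in the other 10 libraries. TPM are shares of each library's RNA, so more transcript of these genes per cell and less of other transcripts cannot be told apart.

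The small-subunit genes took a larger share of the transcriptome in all 3 mutant groups than in WT. Together they held 5.40, 5.39 and 5.84 percent of all TPM as deposited in R787G, 5.10, 4.23 and 3.41 percent in G1242V, 2.89 and 2.92 percent in NULL, and 0.988, 0.743 and 0.956 percent in WT. No 2 of the 4 groups overlap in this share. The R787G and NULL cultures lay close together within their groups, while the 3 G1242V cultures were spread out. As a share of nuclear protein-coding TPM, which leaves out ribosomal RNA, the means were 7.48% ± 0.33 in R787G, 5.79% ± 1.1 in G1242V, 4.19% ± 0.074 in NULL and 1.26% ± 0.16 in WT (SD, n = 3, 3, 2 and 3). Large-subunit ribosomal protein genes held 7.44% ± 0.41 of all TPM in R787G, 5.56% ± 1.2 in G1242V, 3.91% ± 0.0066 in NULL and 1.37% ± 0.17 in WT. The ratio of small- to large-subunit TPM was 0.738 to 0.748 in R787G, 0.754 to 0.783 in G1242V, 0.739 to 0.747 in NULL, and 0.617 to 0.699 in WT, where every library lay below the 8 mutant ones.

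**Figure D1:**
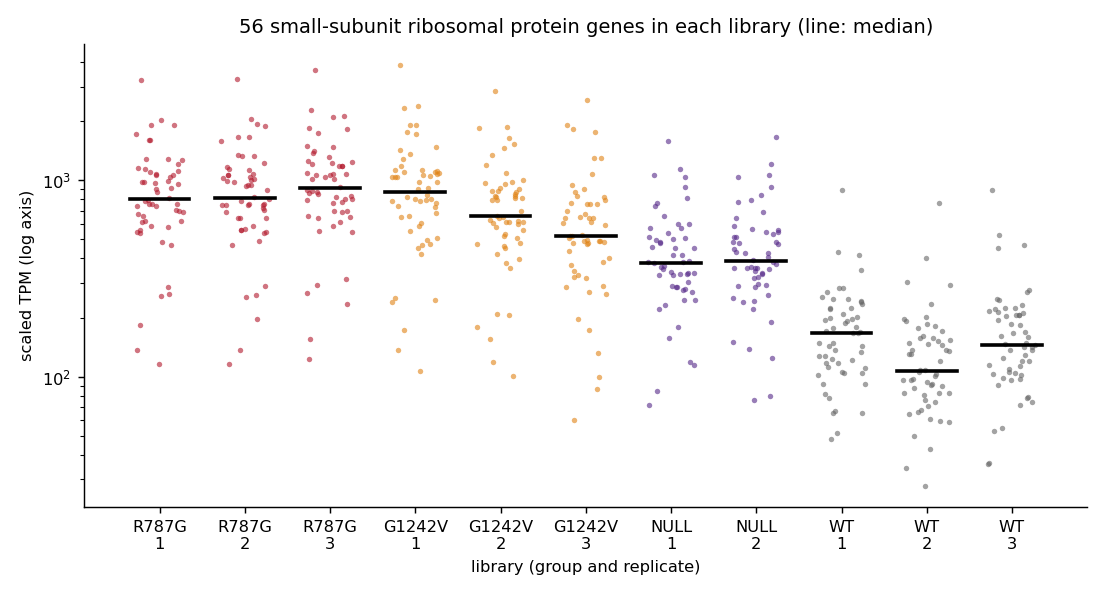
Scaled TPM (log axis) of the 56 small-subunit genes in each of the 11 libraries, 1 point per gene, with a line at the library's median. The medians lie between 804 and 911 in R787G, 522 and 872 in G1242V, 380.3 and 387 in NULL, and 107 and 167 in WT.

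All 56 genes passed the filter of at least 1 TPM in at least 2 libraries. All 56 had their highest WT library below the lowest library of R787G (such a gap upward was seen in 39.5% of all features tested), of G1242V (27.3%) and of NULL (43.7%). The means stood in the order R787G, G1242V, NULL and WT, from high to low, for 53 of the 56. RPS22B and RPS30A, with the G1242V mean above that of R787G, and RPS14B, with the NULL mean above that of G1242V, were the exceptions. For 11 genes the 4 groups were fully apart in that order. Neither pattern was counted over all features, so 53 and 11 have no share beside them. Each gene was tested with limma on log2(scaled TPM + 1) in 1 fit over all 6432 features that passed the filter, and a gene was called at a Benjamini-Hochberg adjusted p under 0.05. Differences below are log2 differences ± SE on that scale. The 3 comparisons with WT share the same 3 WT libraries, so they are not independent of each other.

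R787G minus WT asks how transcript levels, as shares of the library, differ when the R787G protein replaces the degraded Scc2. All 56 small-subunit genes rose, against 36.5% of all features tested that were called higher, and 0 fell, against 29.3%. Their median was 2.60 (quartiles 2.37 to 2.85), beside 0.067 over all features, and 54 of the 56 rose by at least 2-fold, against 7.57% of all. Among the 6 largest differences were those of RPS22A (3.40 ± 0.23), RPS31 (3.14 ± 0.18) and RPS26B (3.12 ± 0.21). RPS22A (chromosome X, 74910 to 75302, minus strand) has no intron and encodes a protein of the body of the subunit. It stood at 959.8, 950.3 and 1035 scaled TPM in R787G, against 106, 67.4 and 109 in WT, 10.6-fold higher on the fitted scale (limma adjusted p = 1.67e-06). The R787G cultures lay close together, and WT replicate 2, the library with the most ribosomal RNA, was the lowest, as it was for 54 of the 56 genes. Without it all 56 genes were still called higher in R787G, G1242V and NULL. RPS26B, whose protein sits at the messenger RNA exit site and is delivered by the chaperone Tsr2, stood at 809, 746 and 868 scaled TPM in R787G, against 105, 82.5 and 90.5 in WT. The 6 smallest were those of RPS30A (0.95 ± 0.093), RPS9A (1.00 ± 0.11), RPS22B (1.59 ± 0.14), RPS27A (1.61 ± 0.16), RPS28A (1.92 ± 0.19) and RPS28B (1.94 ± 0.23), and these too were called, with the highest adjusted p of the 56 at 5.24e-05 for RPS28B (limma).

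G1242V minus WT asks the same of the other variant. All 56 genes rose again, against 26.6% of all features called higher, and 0 fell, against 27.3%, with a median of 2.29 (quartiles 1.97 to 2.56) beside 0.0021 over all features. At least 2-fold rises were 55 of 56, against 4.76% of all. RPS31 (2.99 ± 0.18), RPS22A (2.87 ± 0.23), RPS7A (2.81 ± 0.20) and RPS24A (2.75 ± 0.17) were among the 6 largest differences. The protein of RPS7A, a gene with an intron (chromosome XV, 505794 to 506767, plus strand), is a target of ubiquitination by Not4. RPS7A stood at 801, 617 and 508 scaled TPM in G1242V, against 105, 64.2 and 106 in WT, and the groups are far apart, with G1242V replicate 3 the lowest of its group. At the other end were RPS9A (0.99 ± 0.11), RPS30A (1.08 ± 0.093), RPS27A (1.10 ± 0.16), RPS28B (1.23 ± 0.23), RPS7B (1.35 ± 0.18) and RPS14B (1.53 ± 0.23). RPS28B, with the highest adjusted p of the 56 (0.00128, limma), stood at 107, 100.5 and 60.2 scaled TPM in G1242V, against 48.0, 27.6 and 36.4 in WT.

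NULL minus WT asks what happens when the degraded Scc2 is not replaced. All 56 genes rose here as well, against 36.8% of all features called higher, and 0 fell, against 25.2%. The median was 1.52 (quartiles 1.24 to 1.78) beside 0.089 over all features, and 52 of 56 rose at least 2-fold, against 10.7% of all. The largest were RPS31 (2.07 ± 0.21), RPS22A (2.05 ± 0.25), RPS24A (2.03 ± 0.19), RPS14B (2.00 ± 0.26) and RPS26B (1.96 ± 0.23). RPS24A (chromosome V, 306323 to 307196, plus strand) encodes a body protein and stood at 602 and 643 scaled TPM in NULL, against 169, 121 and 169 in WT. The smallest were RPS30A (0.47 ± 0.10), RPS9A (0.47 ± 0.13), RPS22B (0.86 ± 0.16), RPS28B (1.00 ± 0.25), RPS29B (1.01 ± 0.15) and RPS28A (1.03 ± 0.21). RPS9A was the gene closest to the threshold (limma adjusted p = 0.00826) and the one whose call ended when NULL replicate 1 was left out, at 0.43. The NULL libraries lay close together and well above WT. In a single test over the 4 groups (limma moderated F test), all 56 genes differed, against 86.3% of all features.

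**Figure D2:**
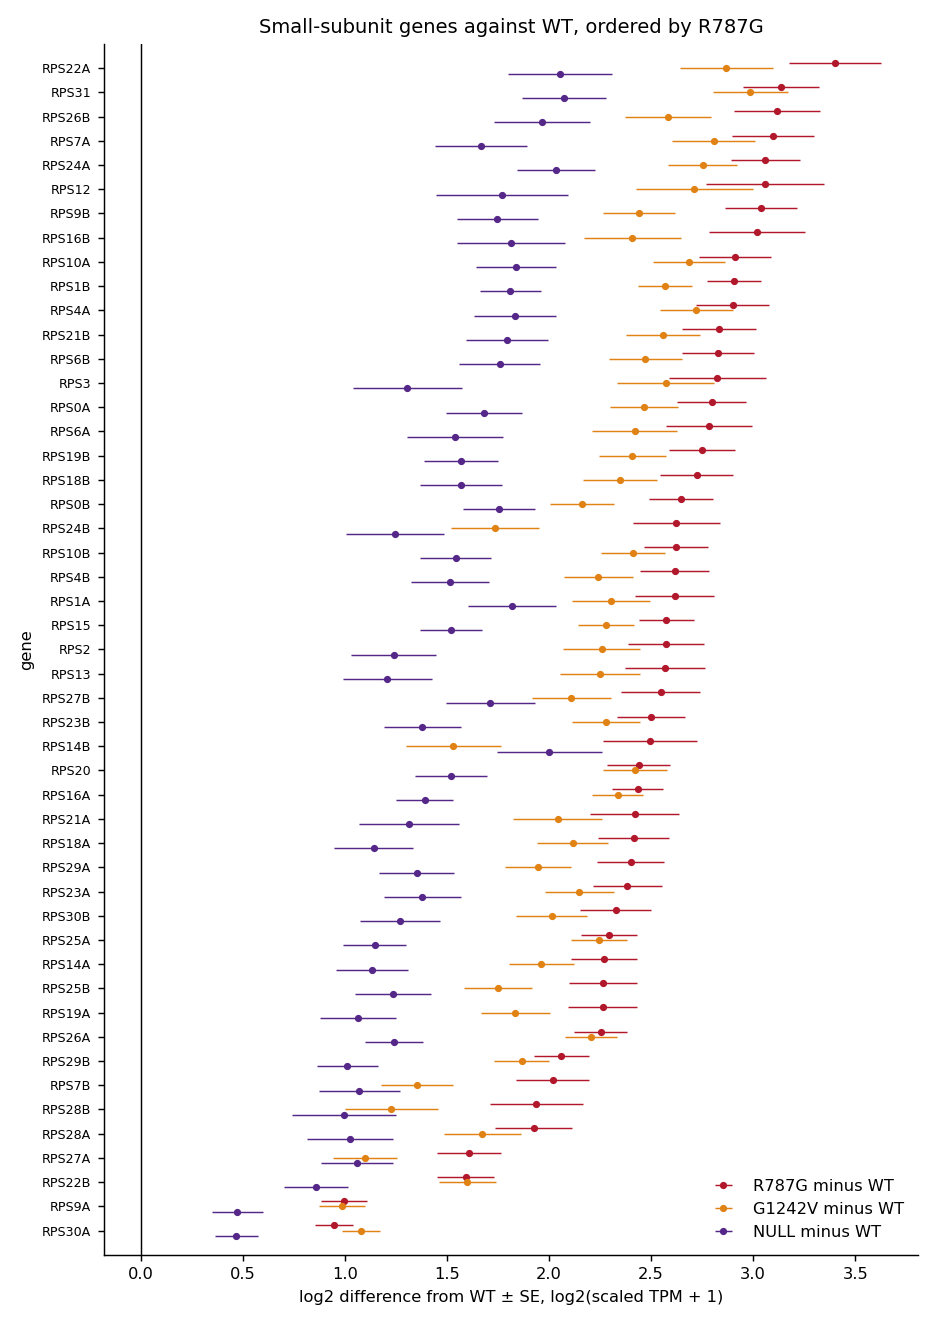
Log2 difference from WT (x axis, ± SE of the limma fit) of small-subunit genes (1 per line of the y axis, ordered by R787G minus WT), for R787G, G1242V and NULL. All points lie right of 0, and RPS30A and RPS9A are the lowest in R787G at 0.95 and 1.00.

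The 8 proteins that come from a single gene have no copy to share reads with, although the ubiquitin part of RPS31 has close relatives in RPL40A, RPL40B and UBI4. Among those that line the path of the messenger RNA, RPS3, whose protein stands at the entry channel and takes part in stalled-ribosome surveillance, stood at 912, 944 and 1064 scaled TPM in R787G, 1109, 795 and 616 in G1242V, 332 and 345 in NULL, and 177, 96.4 and 148 in WT. RPS2, whose protein also shapes the entry channel and which is known for suppressor alleles that lower reading accuracy, stood at 1265, 1349 and 1503 scaled TPM in R787G, 1485, 1092 and 819.5 in G1242V, 536 and 548 in NULL, and 248, 197 and 247 in WT. Both were highest in R787G replicate 3 or G1242V replicate 1 and lowest in WT replicate 2, and NULL lay between WT and the variants without overlap.

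RPS15 and RPS20 encode proteins of the head, and the RPS15 protein is needed for export of the pre-40S particle from the nucleus. RPS15 stood at 1059.8, 1079.6 and 1258 scaled TPM in R787G, 1129, 912 and 755 in G1242V, 572 and 514 in NULL, and 199, 181 and 186 in WT, and its WT libraries were the closest together of the single genes. RPS20 stood at 1923, 1932 and 2132 scaled TPM in R787G, 2339.8, 1846 and 1776 in G1242V, 1046 and 1063 in NULL, and 349, 303 and 467 in WT. The R787G libraries of RPS20 lay within the range of the G1242V ones, and R787G minus G1242V was 0.02 ± 0.16 (limma adjusted p = 0.945). RPS12, a head protein without which yeast can still grow, had the lowest level of the 8 in WT: it stood at 786, 823 and 926 scaled TPM in R787G, 904, 645 and 499.7 in G1242V, 333 and 356 in NULL, and 121, 60.8 and 137 in WT. WT replicate 2 of RPS12 was lower than the other WT libraries, and the SE of its R787G difference was the widest of the 56 at 0.29. RPS13, a body protein, stood at 757, 782 and 883 scaled TPM in R787G, 839.6, 654 and 491 in G1242V, 304 and 323 in NULL, and 167, 108 and 136 in WT and had the smallest NULL difference of the 8, 1.21 ± 0.22.

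RPS31 (chromosome XII, 498947 to 499405, plus strand) encodes a fusion of ubiquitin with a small-subunit protein, which is cut after translation and so supplies both. It stood at 3265, 3287 and 3636 scaled TPM in R787G, 3874, 2874 and 2559.9 in G1242V, 1583 and 1660.0 in NULL, and 429.9, 293 and 453 in WT. It was the most abundant of the 56 transcripts in R787G, G1242V and NULL, and 8.79-fold, 7.92-fold and 4.2-fold higher than WT in R787G, G1242V and NULL. The ubiquitin fusions of the large subunit also rose, RPL40A by 2.79 ± 0.17 and RPL40B by 2.50 ± 0.17 in R787G minus WT. UBI4, the stress-induced gene of tandem ubiquitin units with no ribosomal part, had -0.16 ± 0.11 in R787G minus WT (limma adjusted p = 0.236), -0.34 ± 0.11 in G1242V minus WT (limma adjusted p = 0.0301) and 0.18 ± 0.13 in NULL minus WT (limma adjusted p = 0.249), so it fell in G1242V and was not called in the others. In NULL it was called higher on TPM as deposited (0.41), on TPM rescaled to nuclear protein-coding genes (0.45) and after quantile normalization (0.52).

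Further proteins made from pairs are given by their place, with the level summed over copies and the G1242V minus WT difference of each copy, which was called for all of them. Of the head proteins, Rps10 lies at the messenger RNA entry. RPS10 averaged 2849.6 scaled TPM in R787G, 2462 in G1242V, 1351 in NULL and 418 in WT over both copies, and its G1242V difference was 2.69 ± 0.18 for the A copy and 2.41 ± 0.16 for the B copy. Rps16 reaches with its tail to the decoding site. RPS16 averaged 1251 scaled TPM in R787G, 1012 in G1242V, 572 in NULL and 190.3 in WT over both copies, and its G1242V difference was 2.34 ± 0.12 for the A copy and 2.41 ± 0.24 for the B copy. Rps18 forms part of the bridge to the large subunit. RPS18 averaged 2140.3 scaled TPM in R787G, 1726 in G1242V, 922 in NULL and 363 in WT over both copies, and its G1242V difference was 2.12 ± 0.17 for the A copy and 2.35 ± 0.18 for the B copy. Rps19 is needed for maturation of the pre-40S particle. RPS19 averaged 1163 scaled TPM in R787G, 911 in G1242V, 509 in NULL and 203 in WT over both copies, and its G1242V difference was 1.84 ± 0.17 for the A copy and 2.41 ± 0.16 for the B copy. Rps25 is needed for initiation at some viral internal entry sites. RPS25 averaged 1559.9 scaled TPM in R787G, 1354 in G1242V, 727 in NULL and 322 in WT over both copies, and its G1242V difference was 2.25 ± 0.14 for the A copy and 1.75 ± 0.17 for the B copy. RPS29A, of a small zinc-binding head protein, had 1.95 ± 0.16 in G1242V and 2.40 ± 0.16 in R787G minus WT. The copies of RPS16, RPS18 and RPS19 changed by amounts within 1 of each other, and for RPS19 the A copy held 41.7 to 44.2 percent in the 8 mutant libraries, against 51.8 to 52.6 percent in WT.

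Of the body and platform proteins, Rps0 joins late in assembly. RPS0 averaged 1870.5 scaled TPM in R787G, 1424 in G1242V, 946 in NULL and 286 in WT over both copies, and its G1242V difference was 2.47 ± 0.17 for the A copy and 2.16 ± 0.16 for the B copy. Rps1 lies near the messenger RNA exit. RPS1 averaged 3149 scaled TPM in R787G, 2536 in G1242V, 1597 in NULL and 459 in WT over both copies, and its G1242V difference was 2.30 ± 0.19 for the A copy and 2.57 ± 0.13 for the B copy. RPS4 averaged 1687 scaled TPM in R787G, 1431 in G1242V, 795 in NULL and 248 in WT over both copies, and its G1242V difference was 2.72 ± 0.18 for the A copy and 2.24 ± 0.17 for the B copy. Rps6 is the classic phosphorylated protein of the small subunit and a readout of TORC1. RPS6 averaged 1805 scaled TPM in R787G, 1428 in G1242V, 815 in NULL and 261 in WT over both copies, and its G1242V difference was 2.42 ± 0.21 for the A copy and 2.47 ± 0.18 for the B copy. Rps21 contacts Rps0. RPS21 averaged 1039 scaled TPM in R787G, 855 in G1242V, 499.7 in NULL and 161 in WT over both copies, and its G1242V difference was 2.04 ± 0.22 for the A copy and 2.56 ± 0.18 for the B copy. Rps23 lies at the decoding centre and bears on reading accuracy. RPS23 averaged 1680.0 scaled TPM in R787G, 1449.9 in G1242V, 798 in NULL and 311 in WT over both copies, and its G1242V difference was 2.15 ± 0.17 for the A copy and 2.28 ± 0.17 for the B copy. RPS26A had 2.20 ± 0.13 in G1242V minus WT. The mean of each of these pairs, and of each copy, was higher in R787G, G1242V and NULL than in WT, and the single copies of RPS4 and RPS6 rest on shared sequence.

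RPS30A and RPS9A rose least. RPS30A (chromosome XII, 712537 to 713158, minus strand, with an intron) encodes a short basic protein near the messenger RNA entry, and in WT it was the most abundant of the 56 transcripts. It stood at 1600.1, 1585 and 1741 scaled TPM in R787G, 1917, 1646 and 1835 in G1242V, 1142 and 1212 in NULL, and 897, 768 and 893 in WT. No other small-subunit gene reached its mean in WT, while in R787G it was rank 7 of 56. RPS9A (chromosome XVI, 404950 to 406044, plus strand, with an intron) encodes the minor form of a protein that bears on decoding accuracy, and stood at 116, 116 and 123 scaled TPM in R787G, 136, 119 and 99.2 in G1242V, 84.2 and 79.6 in NULL, and 65.3, 59.0 and 52.5 in WT. R787G and G1242V overlap, and NULL and WT do not.

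RPS22B (chromosome XII, 856442 to 857317, plus strand) has an intron that carries the small nucleolar RNA gene SNR44, and stood at 182, 198 and 234 scaled TPM in R787G, 245, 179 and 196 in G1242V, 119 and 125 in NULL, and 65.1, 59.0 and 77.7 in WT. The R787G and G1242V libraries overlap, and R787G minus G1242V was -0.01 ± 0.14 (limma adjusted p = 0.965). RPS27A stood at 584, 546 and 616 scaled TPM in R787G, 467, 454 and 319 in G1242V, 386 and 408 in NULL, and 223, 158 and 195 in WT. For RPS27A, G1242V and NULL overlap, with a difference of 0.04 ± 0.18 (limma adjusted p = 0.854). RPS28A and RPS28B encode a small protein that, in yeast, binds its own RPS28B messenger and promotes its decay. RPS28A stood at 709, 759 and 794 scaled TPM in R787G, 808, 601 and 522 in G1242V, 382 and 426 in NULL, and 249, 152 and 204 in WT, and RPS28B had the lowest WT mean of the 56 and stood at 136, 137 and 155 scaled TPM in R787G, 107, 100.5 and 60.2 in G1242V, 71.4 and 76.2 in NULL, and 48.0, 27.6 and 36.4 in WT.

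Summed over the copies, the 32 proteins kept the same picture and no longer depend on how reads were split between copies. All 32 sums rose in R787G, G1242V and NULL minus WT (limma, copies summed before the fit), with medians of 2.71, 2.32 and 1.52. Of all features 36.6%, 26.2% and 36.4% were called higher in that fit. RPS31 had the largest difference in each comparison and RPS30 the smallest (1.36, 1.34 and 0.68). The transcript levels of the 32 spanned 4.21-fold in R787G (808 scaled TPM for RPS13 to 3396 for RPS31), 4.69-fold in G1242V, 5.44-fold in NULL and 10.1-fold in WT (106 for RPS12 to 1073 for RPS30). Without RPS30, chosen after its values were seen, the WT span was 5.08-fold and that of NULL 5.17-fold. RPS13 was the lowest of the 32 in all groups but WT, where RPS12 was. RPS31 held rank 1 in R787G and G1242V, rank 2 in NULL and rank 6 in WT.

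**Figure D3:**
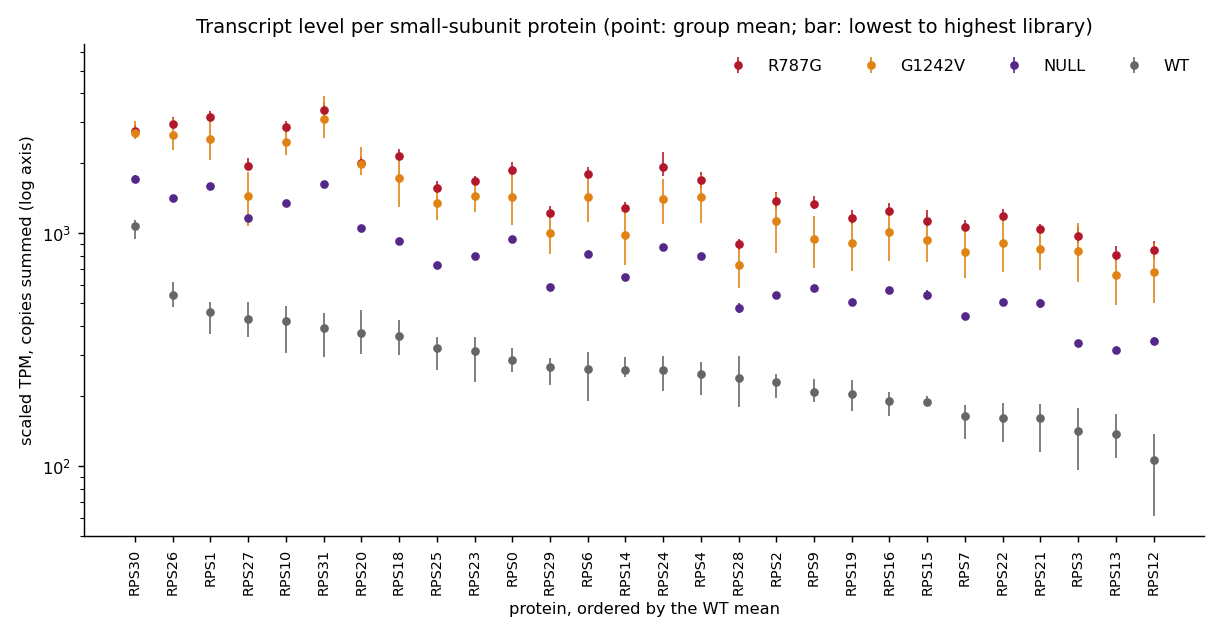
Transcript level of small-subunit proteins, as scaled TPM with A and B copies summed (log axis), ordered by the WT mean. Points are group means and bars run from the lowest to the highest library. RPS30 stands out in WT at 1073 scaled TPM, while the next, RPS26, is at 540.4.

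The copies of a pair did not all change alike. The share of the A copy in the sum of the pair did not overlap between R787G and WT in 16 of 24 pairs, between G1242V and WT in 17 and between NULL and WT in 17. Shares are ratios within a library, so library scaling does not move them. The shares were not tested, and no such count over other gene pairs is at hand, so 16, 17 and 17 have no background. NULL has fewer libraries than R787G or G1242V, so a gap from WT arises more easily by order alone. The NULL count is therefore not on the same footing as those of R787G and G1242V. The copies' log2 differences from WT were at least 1 apart in any comparison for RPS9, RPS22, RPS30, RPS7, RPS27 and RPS24. The B copy of RPS9 held most of the pair's transcript, and RPS9A took 9.1, 9.0 and 8.5 percent in R787G, 11.5, 12.8 and 14.0 in G1242V, 14.2 and 14.1 in NULL, and 27.6, 31.2 and 26.7 in WT. In every mutant library the RPS9A share was below that of every WT library, and R787G was lowest. RPS9A minus RPS9B was -2.04 in the R787G, -1.45 in the G1242V and -1.27 in the NULL difference from WT.

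RPS22 went the other way: RPS22A took 84.0, 82.8 and 81.6 percent in R787G, 78.9, 79.5 and 71.4 in G1242V, 76.0 and 75.8 in NULL, and 62.0, 53.3 and 58.4 in WT. Every mutant library was above every WT library, and R787G was highest. For RPS30 the A share was 60.0, 60.3 and 59.4 percent in R787G, 63.2, 65.0 and 72.5 in G1242V, 69.8 and 68.3 in NULL, and 78.9, 81.3 and 78.4 in WT, lower in all mutant libraries than in WT. The 2 copies of RPS30 differ at few bases, and 17.5% of their stretches of 50 bases are shared, against 4.95% for RPS9 and 0% for RPS22.

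RPS27A, whose copies are the most diverged pair at 84.5% identity, took 31.2, 29.1 and 29.4 percent in R787G, 25.6, 31.5 and 29.6 in G1242V, 34.3 and 34.0 in NULL, and 44.1, 44.0 and 46.8 in WT. All 8 mutant libraries were below the WT range. RPS7A took 72.1, 72.2 and 72.5 percent in R787G, 77.0, 75.0 and 79.4 in G1242V, 63.7 and 66.5 in NULL, and 57.5, 49.2 and 58.9 in WT, above WT in every mutant library, and in WT replicate 2 RPS7B was the larger of the pair. RPS24A took 68.4, 68.7 and 61.4 percent in R787G, 75.2, 72.7 and 75.8 in G1242V, 71.0 and 71.9 in NULL, and 57.0, 57.3 and 63.3 in WT. R787G replicate 3 stood below the other R787G libraries and inside the WT range, and the B copy, RPS24B, is the single one of the 56 genes on chromosome IX.

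RPS14A and RPS14B encode a protein of the platform that, in yeast, represses its own RPS14B transcript. RPS14A took 79.1, 80.1 and 80.4 percent in R787G, 86.0, 84.3 and 88.2 in G1242V, 72.0 and 71.5 in NULL, and 82.4, 79.4 and 85.2 in WT. The NULL libraries lay below all others, and R787G and G1242V did not overlap each other, while each overlapped WT. Of the pairs with much shared sequence, RPS6A took 43.6, 43.0 and 44.6 percent in R787G, 44.5, 43.6 and 42.8 in G1242V, 40.6 and 41.0 in NULL, and 46.3, 43.2 and 43.9 in WT. The larger copy was the same in all 11 libraries in 18 of 24 pairs.

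**Figure D4:**
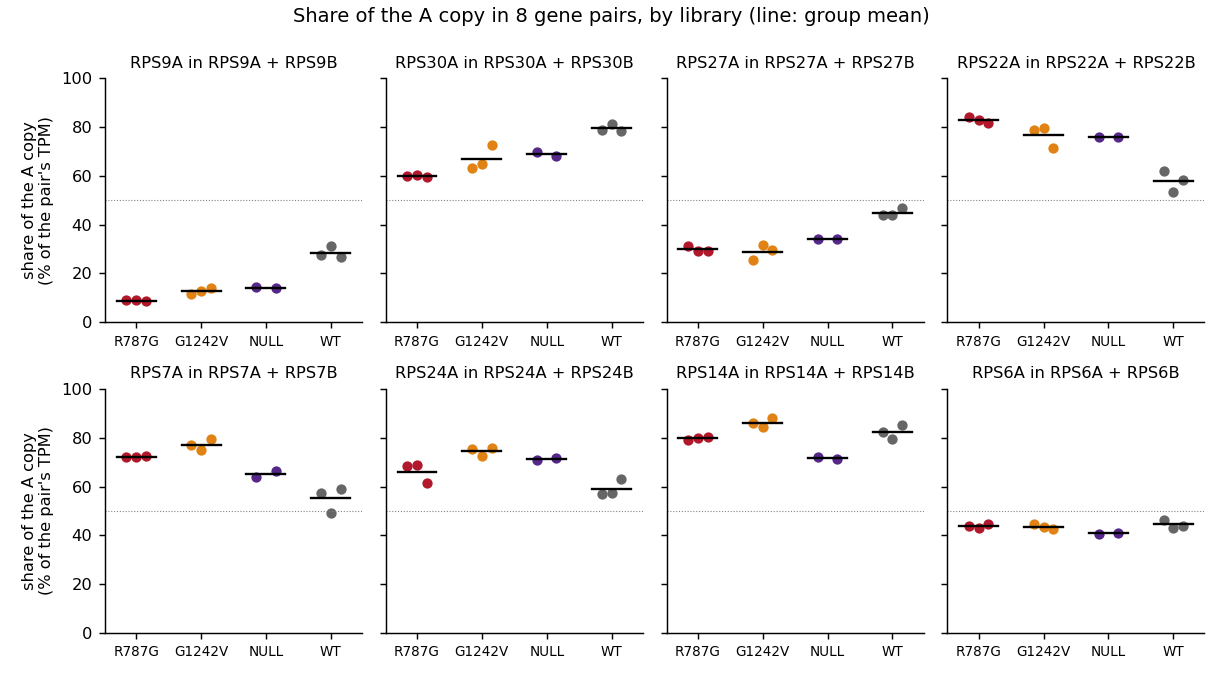
Share of the A copy in the summed TPM of a pair (y axis, percent) in each library, for 8 pairs, with a line at the group mean and a dotted line at 50%. RPS9A, RPS30A and RPS27A lie lower in the mutant libraries than in WT, RPS22A and RPS7A higher, and RPS6A lies between 40.6% and 46.3% throughout.

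Between the 2 variants, few of the small-subunit genes differed past the threshold with the median-ratio scaling, and more did with other scalings named below. In R787G minus G1242V, 10 of 56 were called higher (17.9%), against 26.3% of all features tested, and 0 were called lower, against 19.9% of all. Among the 10 are RPS14B (0.96 ± 0.23), RPS24B (0.89 ± 0.22), RPS28B (0.71 ± 0.23), RPS7B (0.66 ± 0.18), RPS9B (0.60 ± 0.18), RPS25B (0.51 ± 0.17), RPS27A (0.51 ± 0.16), RPS0B (0.49 ± 0.16) and RPS29A (0.45 ± 0.16). RPS14B (chromosome X, 73787 to 74611, plus strand) stood at 257, 255 and 266 scaled TPM in R787G, against 174, 156 and 86.0 in G1242V, and the groups do not overlap (limma adjusted p = 0.00806). The median of the 56 was 0.32, beside 0.05 over all features. Groups did not overlap, with R787G above, for 18 of 56, against 35.2% of all features. The count of calls depends on single libraries and on scaling. It was 29 without G1242V replicate 1, against 23.4% of all features, and 4 without G1242V replicate 3, against 21.035%. Without R787G replicates 1, 2 and 3 it was 5, 5 and 3, against 20.04%, 19.7% and 20.9%. As a share of the 56, the count lay above that of all features without G1242V replicate 1. The count lay below that share when any of the other libraries just named was left out. On TPM as deposited it was 28, against 38.2%, and on TPM rescaled to nuclear protein-coding genes 28, against 34.9%. After quantile normalization it was 26, against 21.9%. With copies summed, 3 of 32 proteins were called higher, against 26.4% of all features.

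RPS24B (chromosome IX, 231553 to 232369, minus strand) stood at 559, 561 and 864 scaled TPM in R787G, 424, 379 and 264 in G1242V, 245 and 251 in NULL, and 128, 89.9 and 98.3 in WT. R787G replicate 3 was far above the other R787G libraries. Its R787G minus G1242V difference was 0.89 ± 0.22 (limma adjusted p = 0.00839), and 0.68 without R787G replicate 3.

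Against the empty vector the R787G counts were larger than those of G1242V, and the G1242V count depended on scaling. In R787G minus NULL, 55 of 56 genes were called higher, against 16.9% of all features, and 0 lower, against 23%. All 56 lay above NULL without overlap, against 34.7%, with a median of 1.09 beside -0.051 over all features. After quantile normalization 49 were called higher, against 17.8% of all features, with a median of 0.71. RPS3 (1.52 ± 0.27), RPS7A (1.43 ± 0.23) and RPS24B (1.38 ± 0.24) had the largest differences, and RPS14B (0.49 ± 0.26, limma adjusted p = 0.152) was not called. In G1242V minus NULL, 46 of 56 were called higher, against 25.6%, and 0 lower, against 37.4%. The genes called higher were 35 on TPM as deposited, 32 on TPM rescaled to nuclear protein-coding genes and 17 after quantile normalization, with medians of 0.51, 0.43 and 0.34. Of all features 14.4%, 11.8% and 26.7% were called higher under these scalings, so the count after quantile normalization is near that share. With the median-ratio scaling used throughout, 48 of 56 lay above NULL without overlap, against 33%, with a median of 0.77 beside -0.091. RPS3 (1.27 ± 0.27) and RPS7A (1.14 ± 0.23) again led. Among the 10 not called were RPS0B, RPS1A, RPS7B, RPS14B, RPS16B, RPS24B, RPS27A, RPS27B and RPS28B, with values from -0.47 for RPS14B to 0.59 for RPS16B. RPS14B is the one gene whose G1242V libraries all lay below those of NULL, a gap downward seen in 46% of all features. It stood at 174, 156 and 86.0 scaled TPM in G1242V, against 179 and 189.6 in NULL (limma adjusted p = 0.137). On TPM as deposited its difference was -0.73, called lower, as were 3552 of all 6432 features on that scaling. RPS3 stood at 1109, 795 and 616 scaled TPM in G1242V, against 332 and 345 in NULL.

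Properties that the names do not carry were set beside the changes, with no test. RPS14B and RPS22A are neighbours on chromosome X, convergent, with 298 bases between their coding ends and no annotated gene between them. Their R787G minus G1242V differences were 0.96 and 0.53, and their G1242V minus NULL differences -0.47 and 0.82. The 36 genes with an intron in the coding sequence had medians of 2.62, 2.26 and 1.54 in R787G, G1242V and NULL minus WT. The 20 without had 2.58, 2.35 and 1.43. The 22 genes of the 14 head proteins had 2.60, 2.38 and 1.52 in R787G, G1242V and NULL minus WT, and the 34 of the 18 body and platform proteins 2.60, 2.25 and 1.53. By coding length, the 10 genes of up to 300 bases, those of RPS21, RPS27, RPS28, RPS29 and RPS30, had 2.19 in R787G minus WT and the 46 longer ones 2.63. TPM of very short transcripts rest on few read positions. The larger copies of the 24 pairs in WT had medians of 2.59, 2.31 and 1.66 in R787G, G1242V and NULL minus WT. The smaller copies had 2.62, 2.19 and 1.51.

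Other genes of the pathway were counted from lists. Of the large-subunit genes, 79 of 81 were called higher in R787G minus WT (median 2.53), 80 in G1242V minus WT (2.16) and 75 in NULL minus WT (1.44), against 36.5%, 26.6% and 36.8% of all features. RPL9A (3.92 ± 0.21), RPL41B (3.53 ± 1.13) and RPL24A (3.30 ± 0.19) led in R787G, and the same 3 led in G1242V (3.44 ± 0.21, 3.38 ± 1.13 and 3.15 ± 0.19). RPL9A (2.32 ± 0.23), RPL21A (2.13 ± 0.19) and RPL39 (2.09 ± 0.14) led in NULL, where RPL10 alone fell (-0.60 ± 0.15), a call that ended after quantile normalization. ASC1 and STM1 encode proteins that bind the mature small subunit, Asc1 as a scaffold on the head and Stm1 in idle ribosomes. ASC1 had 2.74 ± 0.19, 2.55 ± 0.19 and 1.20 ± 0.22 in R787G, G1242V and NULL minus WT, and STM1 2.13 ± 0.13, 1.90 ± 0.13 and 1.37 ± 0.15. All 6 values were called higher (limma adjusted p 1.22e-06 to 9.02e-04).

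Of 18 genes of late small-subunit assembly and dedicated chaperones, 14 rose and 1 fell in R787G minus WT (median 0.68), 0 rose and 3 fell in G1242V minus WT (0.012), and 12 rose and 2 fell in NULL minus WT (0.56). Of all features 36.5%, 26.6% and 36.8% were called higher in these comparisons and 29.3%, 27.3% and 25.2% lower, so the falls in the list were fewer than that share. DIM1, the methylase of the 18S rRNA end, had 1.20 ± 0.19 in R787G, 0.19 ± 0.19 in G1242V and 0.86 ± 0.21 in NULL minus WT. TSR2, the chaperone of Rps26, had 1.13 ± 0.13, 0.28 ± 0.13 and 0.95 ± 0.14, and LTV1, which helps place Rps3, 1.09 ± 0.17, -0.08 ± 0.17 and 1.27 ± 0.19. In G1242V minus WT, RIO1 (-0.53 ± 0.07), HRR25 (-0.39 ± 0.06) and NOB1 (-0.38 ± 0.12) fell. Rio1 and Hrr25 are kinases and Nob1 is the nuclease of the last maturation steps. HRR25 was also the gene that fell in R787G (-0.42 ± 0.06). In NULL, LTV1, SGD1 (1.11 ± 0.12) and TSR2 rose most, and RIO1 (-0.21 ± 0.078) and HRR25 (-0.20 ± 0.067) were called lower. Those 2 calls ended on TPM as deposited, where 0 of 18 fell and 14 rose. On that scaling 53.2% of all features were called higher in NULL and 950 of 6432 lower. In the direct comparison of the variants, 14 of 18 were higher in R787G minus G1242V (median 0.70), led by ENP1 (1.22 ± 0.17), LTV1 (1.17 ± 0.17) and TSR1 (1.02 ± 0.15), beside 10 of the 56 small-subunit genes (median 0.32) and 26.3% of all features.

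Of 13 genes of regulators, 3 rose and 4 fell in R787G, 2 rose and 7 fell in G1242V, and 2 rose and 6 fell in NULL, each minus WT. Of all features 36.5%, 26.6% and 36.8% were called higher and 29.3%, 27.3% and 25.2% lower, so the R787G falls are near the share of all features. On TPM as deposited 5 rose and 5 fell in NULL, against 53.2% of all features called higher and 950 of 6432 lower on that scaling. SFP1, an activator of ribosomal protein genes, fell in R787G, G1242V and NULL (-0.77 ± 0.072, -0.75 ± 0.072 and -0.77 ± 0.08), as did CRF1, a corepressor that competes with Ifh1 (-1.76 ± 0.22, -1.88 ± 0.22 and -0.85 ± 0.24), STB3 (-0.82 ± 0.077, -0.71 ± 0.077 and -0.64 ± 0.086) and REB1 (-1.05 ± 0.063, -1.01 ± 0.063 and -1.36 ± 0.071). IFH1, the coactivator, had -0.03 ± 0.098 in R787G (limma adjusted p = 0.813), fell by 0.53 on the log2 scale in G1242V (limma adjusted p = 0.00136) and rose in NULL (0.31 ± 0.11). FHL1, the partner of Ifh1, was not called in R787G, G1242V or NULL (0.07 ± 0.082, -0.08 ± 0.082 and 0.08 ± 0.091), though on TPM as deposited it was called higher in NULL (0.30). RAP1 rose in R787G (0.47 ± 0.086) and G1242V (0.30 ± 0.086), TBF1 in R787G (0.30 ± 0.086) and HMO1 in G1242V (0.24 ± 0.076), while HMO1 fell in NULL (-0.51 ± 0.085). The G1242V call of HMO1 ended when TPM were rescaled to nuclear protein-coding genes, and that of CRF1 in NULL did too. TOD6, a repressor of ribosome assembly genes, rose in R787G (0.86 ± 0.20) and NULL (0.93 ± 0.23) and fell in G1242V (-0.56 ± 0.20), with R787G minus G1242V at 1.42 ± 0.20 (limma adjusted p = 7.38e-04). Its fall in G1242V was not called after quantile normalization.

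**Figure D5:**
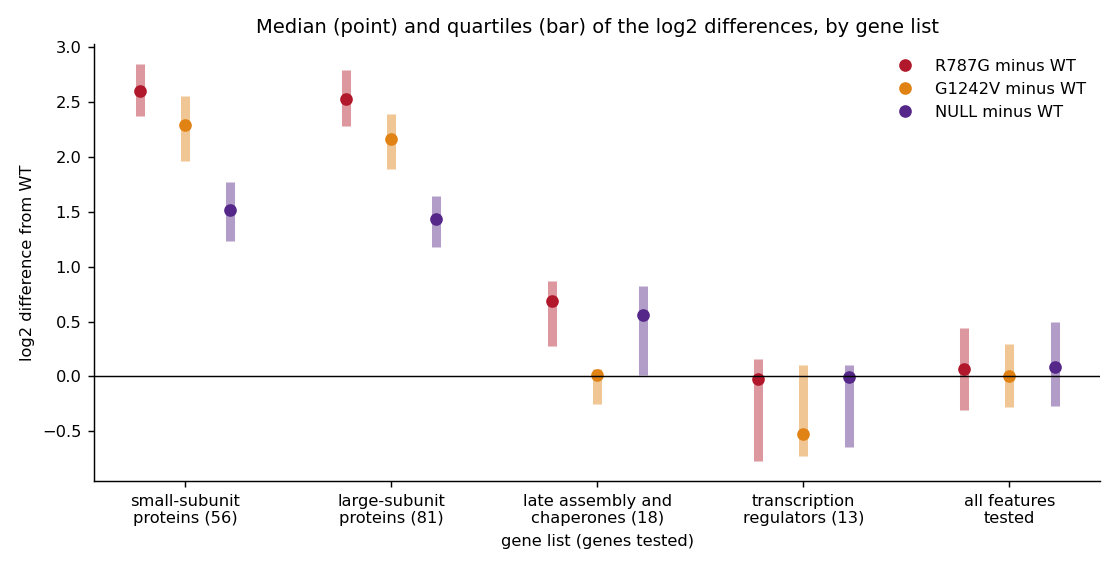
Median (point) and quartiles (bar) of the log2 differences from WT for small-subunit genes, large-subunit genes, 18 late assembly factors and chaperones, 13 regulators and all features tested. The small-subunit medians are 2.60 in R787G, 2.29 in G1242V and 1.52 in NULL, and those of the assembly list 0.68, 0.012 and 0.56.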

How the data were processed

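RNA of 11 cultures was sequenced, and the authors deposited TPM per feature and library. The submitters' processing notes name bcl2fastq 2.17, STAR, RSEM, edgeR and the build sacCer3. Annotation, strand setting and other versions: not given in the sources used here. Per the labels' protocols the libraries were stranded, ribo-depleted and read as 50 bp single reads. TPM keep no depth, so no count model, interval or detection limit was possible.

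Of 7036 features, 1 row shifted by a field was left out. Of the remaining 7035, locus tags tied 5955 to the R64 annotation and symbols another 122, which left 958 without a match. All 56 small-subunit genes are named alike in file and annotation. Each library was scaled by the median ratio to the geometric mean, over the 5221 genes that reached 10 TPM in all libraries. The 6432 features with 1 TPM or more in 2 or more libraries entered limma 3.58.1 (R 4.3.3) as log2(scaled TPM + 1). All 11 libraries shared 1 fit without covariates, with a mean-variance trend. Tests were two-sided, with Benjamini-Hochberg adjustment over all features and a threshold of 0.05. The fit was tested on simulated data. P-values rest on a spread between cultures that was pooled over the 4 groups and moderated across features. They do not measure the spread of the compared groups alone, and NULL, with 2 libraries, shares the error of the other groups. Coding identity came from edlib 1.3.9.post1 (Python 3.11.15). Alternatives were other scalings, pseudocounts, filters, eBayes settings, the replicate number as a block, summed copies, a fold of at least 2, only the groups compared, and leaving out each library.

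Some small-subunit genes are counted in every total but not reported by name here. Genes named with values were otherwise the 6 largest and 6 smallest differences per comparison with WT, single-copy genes, pairs whose copies differed by 1 or more, genes on chromosome IX, all called in G1242V minus WT, and up to 3 per direction of each pathway list, with ASC1, IFH1, FHL1, SFP1 and SCC2. The shares of RPS6, RPS14 and RPS19, the R787G minus G1242V calls, the NULL comparisons' genes and NOB1, TSR1 and ENP1 were singled out after their values were seen. The genes and lists were chosen with earlier results of these data known.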

Additional observations from a re-analysis of the deposited data

How the results depend on the processing

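No small-subunit gene that was called changed direction under any of the alternatives run, and against WT 1 call was lost apart from those ended by asking for a fold of at least 2, that of RPS9A in NULL without NULL replicate 1. Leaving out 1 library at a time, the genes called higher were 56 in R787G minus WT and in G1242V minus WT, 55 to 56 in NULL minus WT, 3 to 29 in R787G minus G1242V, 44 to 56 in R787G minus NULL and 31 to 53 in G1242V minus NULL, where those called lower were 0 to 1. The medians were 2.51 to 2.69, 2.15 to 2.45, 1.39 to 1.58, 0.15 to 0.49, 1.04 to 1.12 and 0.62 to 0.93 in the same order of comparisons. Where 1 NULL library was left, it was assumed to vary like the other groups.

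Scaling moved the comparisons that involve NULL or set the variants side by side. In the order TPM as deposited, TPM rescaled to nuclear protein-coding genes and quantile normalization, the NULL minus WT median was 1.750, 1.788 and 1.774, the R787G minus NULL median 0.9503, 0.8521 and 0.7133, and the G1242V minus NULL median 0.513, 0.4321 and 0.3432. In R787G minus G1242V, 28, 28 and 26 genes were called higher, against 38.2%, 34.9% and 21.9% of all features. In G1242V minus NULL, 1, 1 and 2 genes were called lower, against 3552, 3875 and 1835 of all 6432 features. Quantile normalization left 17 of 56 called higher, near the 26.7% of all features. RPS14B was called lower under each of these scalings, with RPS27A the second gene after quantile normalization. With the same first 2 scalings, the median of all features in NULL minus WT was 0.31 and 0.35, against 0.089 as reported, and the share of calls that were higher 78.3% and 80.7%, against 59.3%. That share was 75.5% and 73.5% in R787G minus G1242V, against 57.0%, 21.4% and 13.2% in R787G minus NULL, against 42.4%, and 20.7% and 16.4% in G1242V minus NULL, against 40.6%. The cause was not tested.

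With A and B copies summed, 32 of 32 proteins were called higher in R787G, G1242V and NULL minus WT and in R787G minus NULL. Of all features 36.6%, 26.2%, 36.4% and 16.4% were. In G1242V minus NULL 31 of 32 were, against 25.5%, and RPS27 was not (0.29 ± 0.20, limma adjusted p = 0.235). All 32 differed among the 4 groups. In R787G minus G1242V, 3 were higher, against 26.4% of all features. Fewer features enter by construction. At a fold of at least 2, 0 genes were called higher in R787G minus G1242V, against 2.33% of all features. In G1242V minus NULL 6 were, against 4.23%. At that fold 0 were called lower in either comparison, against 139 and 541 of 6432 features. With the replicate block the genes called higher were 56, 56, 56, 9, 56 and 48 in the 6 comparisons. Of all features 36.8%, 26.9%, 35.5%, 26.3%, 17.1% and 24.6% were called higher with that block. The deviations of same-numbered libraries had correlations of -0.159 to 0.274, most of them negative and not all over 0.1, so the numbers were not taken to pair libraries. TPM hold no depth, so low genes such as RPS28B cannot be given a counting error.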
